A study of Mus musculus with 5 samples.

Results

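Barcodes of 7-day mouse salivary gland organoids (mSGOs) with the highest summed share of Cxcl17, Lcn2 and 6 further genes were chosen by expression. In the 3 day 7 libraries, cell barcodes were eligible when mitochondrial transcripts made up at most 5% of their unique molecular identifiers (UMIs, the counted transcript molecules), when the nuclear RNA Malat1 made up at least 1%, and when they held at least 2000 UMIs. The 3221 eligible barcodes, of 44975 deposited for day 7 and 72788 in the whole series, were ranked by the summed UMI share of 8 genes, Cxcl17, Lgi2, Lcn2, Dapl1, Mlph, Prr15l, Gabrp and Gda (the rule genes), and the 300 highest became members. Of these, 62 came from the control library, 136 from the photon library and 102 from the proton library. The other 2921 eligible barcodes are called the rest.

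The study grew organoids from submandibular glands of female C57BL/6 mice aged 8 to 12 weeks, 4 animals together, in Matrigel with Wnt3a- and R-spondin1-conditioned medium and the ROCK inhibitor Y27632. One day 7 culture was not irradiated, one received 7 Gy of photons and one 7 Gy of protons at day 5, and propidium iodide-negative cells were sorted for droplet sequencing from each. Non-irradiated organoids of day 11, from other animals (age not given in the labels) and a separate run, and non-irradiated freshly dissociated gland tissue were the remaining libraries. Each condition was 1 library, so no difference between conditions has a replicate check, no p-value is given, and the 95% intervals below cover counting error only.

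Lipocalin 2, the product of Lcn2, binds bacterial siderophores and keeps iron from microbes, and CXCL17 is a chemokine of mucosal surfaces. Both are known from epithelia that face a lumen, where duct cells carry saliva and take part in mucosal defense. The salivary duct has a luminal layer marked by simple keratins and a basal layer marked by Krt5 and Krt14, and cultured ductal epithelium can also take on keratins of stratified mucosa.

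The deposited libraries held 16908611 to 30957157 UMIs at day 7. Members had a median of 7226.5 UMIs in the control, 5522.5 in the photon and 5132.5 in the proton library, against 6655, 5944 and 6241 in the rest. The median Malat1 share was lower in members than in the rest in each library (3.34% against 4.43%, 4.57% against 6.02% and 5.71% against 6.86%), and the part of this in the gene differences below was not tested. Eligible barcodes shared at most 1 sequence between any 2 day 7 libraries, and members shared 0. The doublet caller Scrublet scored the eligible barcodes. Its threshold marked 6 in the control, of which 1 was a member, 7 in the photon and 2 in the proton library, and all were kept. For the alternative without doublets the 11 highest scores of the proton library were left out.

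Members differed widely in how much of the rule they carried. The top barcode, from the photon library, had 52 rule UMIs of 4465 (1.16%), whereas rank 300 had 4 of 10359 (0.0386%) and rank 301, just outside, 7 of 18162 (0.0385%). The ranking showed no gap at the boundary. A single rule UMI carried 46 members, 2 carried 56, 3 carried 42, 4 to 9 carried 104 and 10 or more carried 52. Only 1 of the 8 genes was detected in 90 members, 2 in 89, 3 in 65, 4 in 34, 5 in 19 and 6 in 3. Of the rest, 2080 barcodes (71.2%) had no rule UMI.

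**Figure D1:**
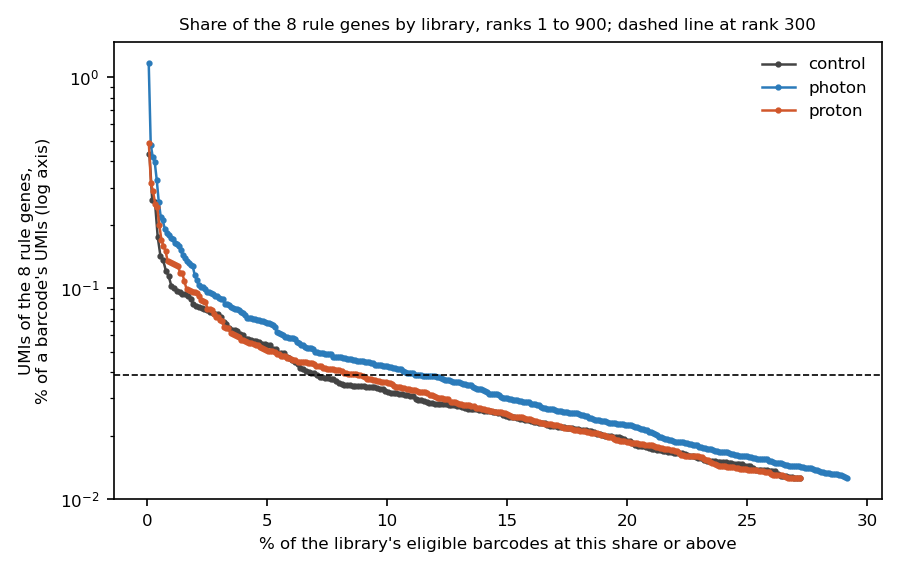
Share of each barcode's UMIs that came from the 8 rule genes (log axis) against the percent of its library's eligible barcodes at that share or above, for ranks 1 to 900 over the 3 libraries. The dashed line is the value at rank 300, 0.0386%; the photon curve crosses it at 11.3%, the proton curve at 8.90% and the control curve at 7.09%.

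The share of eligible barcodes that were members was 7.09% in the control (95% exact binomial interval 5.48 to 8.99%), 11.3% after photons (9.59 to 13.3%) and 8.90% after protons (7.32 to 10.7%). The photon share was 1.60 times the control share (1.18 to 2.20), and the proton share 1.26 times (0.907 to 1.75), an interval that includes no difference. Members with a single rule gene were 11 of 62 in the control, 42 of 136 in the photon and 37 of 102 in the proton library. With at least 2 rule genes required, 51, 94 and 65 members were left, and the ratios to control were 1.34 for photons and 0.973 for protons. Thinned to 2000 UMIs per barcode, at least 2 rule UMIs were held by 2.97%, 5.42% and 4.19% of the control, photon and proton barcodes, and at least 1 by 16.3%, 17.3% and 15.9%. The photon library was highest by each of these counts.

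Barcodes that were not eligible, with a median of 873 to 1070 UMIs, held the rule genes at nearly the same level as the eligible ones, 116 against 123 CPM (a gene's UMIs over all UMIs of the same barcodes, as counts per 1e6) in the control, 157 against 157 in the photon and 121 against 126 in the proton library. RNA free in the droplets was not measured, and its part in members that rest on 1 or 2 rule UMIs was not tested.

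Lcn2 gave the largest part of the rule signal. In members its level was 292 CPM in the control, 459 in the photon and 323 in the proton library, against 7.91, 17.8 and 13.6 in the rest. It supplied 757 of the rule UMIs (41.8%), was detected in 125 members, and was the sole rule gene in 39. Over all eligible barcodes Lcn2 stood at 28.6 CPM in the control (24.7 to 33.0), 66.7 after photons (61.2 to 72.6) and 38.6 after protons (34.4 to 43.2). These are 1 library each, and Lcn2 UMIs lay together in few barcodes, with 49 in 1 member, so the intervals say nothing of the conditions. Lcn2 lies on chromosome 2 at chr2:32384637-32387739 of GRCm38.p6.

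Cxcl17, the other gene of the name, was scarce at day 7. Members held 61.7, 48.2 and 56.4 CPM in the control, photon and proton libraries, against 3.88, 1.82 and 4.27 in the rest. Its 109 UMIs came from 53 members, and 19 of those also held Lcn2. Neither Lcn2 nor Cxcl17 was detected in 141 of the 300 members. Cxcl17 lies at chr7:25400053-25412886, close to the cornification gene Cnfn at chr7:25367616-25369724.

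The remaining 6 rule genes have unlike functions. Lgi2 encodes a secreted leucine-rich repeat protein and was at 152, 77.4 and 138 CPM in members of the control, photon and proton libraries. Dapl1, a gene of differentiating stratified epithelia, was at 121, 76.3 and 76.8. Gabrp, the pi subunit of GABA-A receptors found outside the nervous system, was at 86.4, 53.8 and 107. For Lgi2 and Gabrp the photon members had the lowest level, the reverse of Lcn2, while Dapl1 was alike in photon and proton members. Gda, guanine deaminase of purine breakdown, was at 61.7, 95.3 and 73.7 CPM, Mlph, the adaptor that links Rab27a vesicles to myosin, at 45.2, 69.5 and 48.6, and Prr15l at 32.9, 61.7 and 50.2. In the rest these 6 genes were at 4.20 to 16.6 CPM. Of the 13 other GABA-A subunit genes examined, 12 had no UMI in members.

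**Figure D2:**
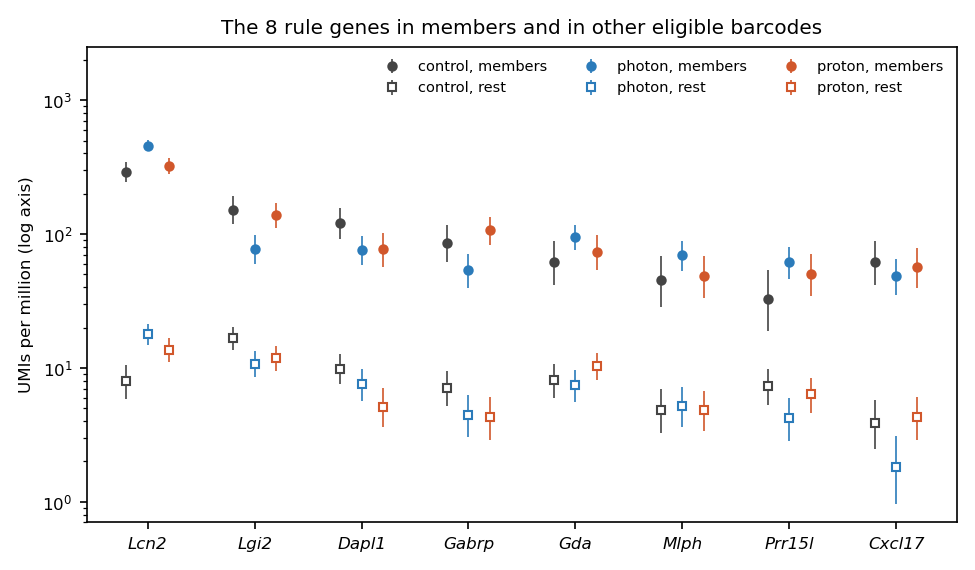
Level of each rule gene in CPM (log axis) in members (filled circles) and the rest (open squares) of the control, photon and proton libraries, with 95% exact Poisson intervals. Every member value exceeds its rest value, which the ranking on these genes fixes; Lcn2 is highest at 292, 459 and 323.

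Co-occurrence of the 8 genes was described by ranking on 7 of them and reading the eighth, which that ranking had not used. Lcn2 was 6.06-fold higher in the top 300 of the other 7 genes than in the remaining barcodes (95% interval 5.33 to 6.89), Gabrp 6.40-fold (4.95 to 8.25), Cxcl17 5.85-fold (4.24 to 8.01) and Lgi2 4.09-fold (3.34 to 4.99). Gda had the smallest ratio, 3.58 (2.78 to 4.57). Each of the 8 left-out genes was higher in all 3 libraries, by 1.21 to 3.08 on the log2(CPM + 1) scale. The 8 genes were proposed together from these data, so this describes their co-occurrence and is no test of it. The left-out gene was detected in 11.7% of the top barcodes for Cxcl17 and 24.3% for Lgi2, and each such ranking shared 226 to 282 of its 300 barcodes with the members. Lgi2 and Dapl1 were found together most often, in 46 members, and Cxcl17 and Mlph least often, in 8.

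The promoter of Lcn2 and those of 3 chemokine genes described below are printed because both groups are known targets of inflammatory transcription factors. The sequences are from RefSeq (GRCm38.p6), end at the base before the transcription start, and read 5′ to 3′ on the gene's strand. The Lcn2 promoter is the minus strand of chr2:32387740-32387989. Its capitals mark CTTCCT, the reverse complement of AGGAAG, an ETS-type motif, which begins 223, 124 and 21 bases before the start.
Lcn2: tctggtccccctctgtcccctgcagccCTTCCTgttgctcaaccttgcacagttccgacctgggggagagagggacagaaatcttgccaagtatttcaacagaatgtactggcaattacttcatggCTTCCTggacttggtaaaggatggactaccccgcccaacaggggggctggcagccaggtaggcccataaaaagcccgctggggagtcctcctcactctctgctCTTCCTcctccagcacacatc

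Searched on both strands of the 250 bases before the start, AGGAAG was in 29.5% of 32851 mouse promoters and at least 3 copies in 1.22%. The Lcn2 window also held TTGCNNAA, a C/EBP-type motif found in 9.56% of promoters, 216 bases before the start, and no NF-kB-type motif (GGGA, any 4 bases, then CC), which was in 17.6%. Promoters were matched for 15 of 22 genes searched. A match is a run of letters and not evidence of binding.

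Outside the rule, 5039 genes had enough UMIs to compare (at least 100 UMIs, and 20 CPM in members or in the rest). At least 2-fold in all 3 libraries, 47 were higher in members (0.933%) and 15 lower (0.298%). These describe barcodes that had been picked by expression and are no test. The median gene was 0.12 higher in members on the log2 scale, and -0.03 after median-of-ratios scaling, and the differences below are not corrected for this shift unless median-of-ratios scaling is named.

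Il33, an alarmin cytokine of barrier epithelia, had the largest least difference over the 3 libraries of the genes that the rule did not use, while Ldhd (mean 2.11) and Cxcl3 (2.08) had a larger mean than Il33 (2.06). Its level was 629, 846 and 818 CPM in control, photon and proton members against 164, 181 and 201 in the rest, or 1.93, 2.21 and 2.02 on the log2 scale. Each of the 3 member values lay above each of the 3 rest values. It was detected in 58.3% of members and 40.6% of the rest.

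Several of the 47 genes are known from stratified epithelia, and those given here beyond the 20 highest (Krt13, Krt15, Prss27, Anxa1 and Ecm1) were chosen after their values were seen. Krt13, the keratin of non-cornified oral epithelium, was at 1698, 1752 and 1825 CPM in members against 677, 465 and 396. Spink5, a serine protease inhibitor of the upper epidermis, was at 271, 468 and 317 CPM against 88.7, 120 and 104. Krt13 and Spink5 were higher in members of every library. Scel (sciellin, 1.70, 1.89 and 2.07 on the log2 scale), Calml3 (2.17, 1.74 and 1.38) and the membrane-linked proteases Tmprss11b (1.46, 1.72 and 1.74) and Prss27 (2.15, 2.35 and 1.24) went the same way. Anxa1 and Ecm1, both abundant in squamous epithelium, reached 4298 and 2486 CPM in members of the 3 libraries pooled against 1449 and 1102 in the rest.

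Further members of the group were Mal, which takes part in apical membrane sorting, at 127, 161 and 190 CPM against 33.8, 44.4 and 51.0, and Serpinb1a, a neutrophil protease inhibitor, at 101, 107 and 79.9 against 30.4, 22.3 and 20.8. In the control library 1 member held 31 of 62 Mal UMIs, and without it the log2 difference was 0.92. Serpinb1a and Serpinb11, like the keratin and small proline-rich genes, belong to gene families. Counting may divide UMIs between close relatives, which was not measured. Krt15, a keratin of basal cells, also belonged here at 1511, 1992 and 1870 CPM in members against 463, 953 and 916.

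Cxcl3, a neutrophil-attracting chemokine, was at 47.3, 163 and 75.2 CPM in members against 11.5, 30.7 and 19.4 in the rest. It came from 27 members. A single barcode held 34.8%, 32.4% and 43.8% of its UMIs in the 3 libraries, and without the highest member of each the log2 differences were 1.38, 1.83 and 1.12. Among the 20 genes with the largest least difference, leaving out each gene's highest member kept the direction in 20 and a 2-fold difference in all 3 libraries in 18.

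**Figure D3:**
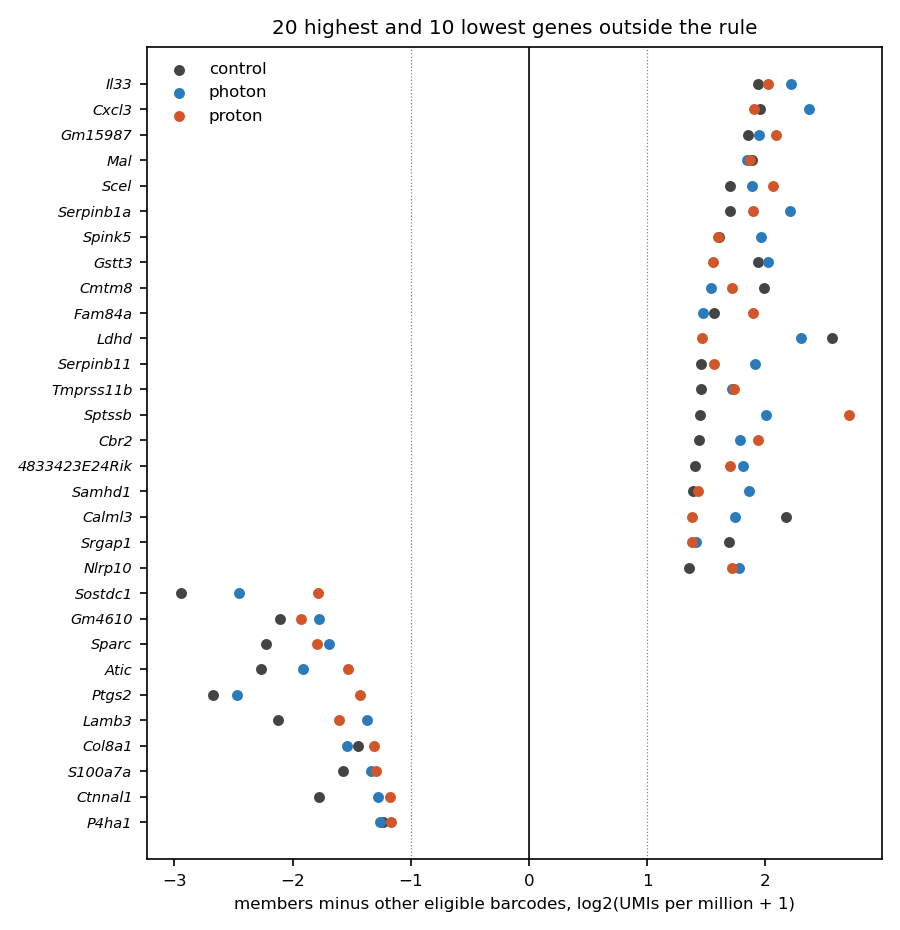
Difference between members and rest, log2(CPM + 1), for the 20 highest and 10 lowest genes outside the rule, with 1 point per library (control, photon, proton) and dotted lines at 2-fold. Il33 (1.93, 2.21 and 2.02) and Sostdc1 (-2.95, -2.45 and -1.79) head the ends.

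Sostdc1, a secreted inhibitor of BMP and Wnt signaling, was the lowest gene. Members held 20.6, 20.2 and 26.6 CPM against 165, 115 and 94.4 in the rest. Sparc, a matrix protein, was at 18.5, 29.2 and 26.6 against 90.1, 96.3 and 95.1, and Lamb3, a laminin-332 chain of the basement membrane, at 18.5, 35.9 and 28.2 against 84.0, 94.5 and 87.9. All 3 were lower in members of every library, as were the prostaglandin synthase Ptgs2 (-2.68, -2.47 and -1.43), the Notch ligand Jag2 (-1.39, -1.36 and -1.11) and the integrin chain Itga3 (-1.26, -1.07 and -1.63). Gm4610 and S100a7a, also among the 10 lowest, had only 2 UMIs each in control members, where the rest was 5.11-fold (1.39 to 42.6) and 3.46-fold (0.929 to 29.0) higher. For the 10 lowest genes, leaving out the highest member left all 10 at least 2-fold lower. That step takes UMIs from the lower group, so it could hardly have given another result.

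The label of the barcodes as ductal was checked against luminal duct markers. Of 13 measured, 10 were higher in members in all 3 libraries and 0 lower, where 38.8% of all genes were higher and 17.7% lower, and their median difference was 0.51. The claudins Cldn4 (0.22, 0.44 and 0.32) and Cldn3 (0.51, 1.90 and 0.34), the epithelial factors Ehf (0.79, 1.06 and 0.76) and Elf3 (0.47, 0.72 and 0.85) and Krt19 (1.92, 0.57 and 1.52) were higher. The keratin pair that defines luminal duct cells was not, since Krt8 gave 0.05, 0.41 and -0.29 and Krt18 gave -0.24, 0.04 and -0.16. Muc1 had no UMI in any member. After median-of-ratios scaling 9 of the 13 were higher and 1 lower, where 24.4% of all genes were higher and 30.4% lower. These shares of all genes, 38.8% and 17.7% or 24.4% and 30.4%, are the background for each list compared between members and rest.

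Basal duct markers went the other way. Of 12 measured, 9 were lower in members in all 3 libraries and 2 higher, with a median of -0.52, and the same counts came from median-of-ratios scaling. Krt17 (-0.95, -0.60 and -0.80) and the laminin and integrin genes Lama3 (-0.28, -0.83 and -0.58) and Itgb4 (-0.48, -0.63 and -0.88) were lower, whereas Krt5 (0.35, 0.36 and 0.31) and Krt15 were higher. The study counts Krt17 among its luminal duct markers, so it is basal only by the list used here. Krt14 was lower in every library but remained abundant, at 3868, 4722 and 4527 CPM in members against 5269, 4956 and 5109 in the rest.

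Of 13 cornifying squamous genes, 8 were higher in all 3 libraries, 1 was lower, and the median was 0.58, near the value of the luminal list. Only 1 of the 13, Krt13, was at least 2-fold higher in all 3. Median-of-ratios scaling left 6 higher. Sprr1a (1.97, 0.47 and 0.61) and Sbsn (1.58, 0.72 and 0.98) were higher, and Krt10 (-0.90, -0.08 and -0.10) was lower. Ranking the eligible barcodes by the cornifying list put 68 members among its top 300, and ranking by the luminal list 69, where 9.31% of eligible barcodes were members. Most luminal duct markers were thus higher in members, but Krt8 and Krt18 were not, Muc1 was at 0 and cornifying genes were also higher, so the barcodes are called by their rule.

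Markers of other cell types were few in members. Of 14 immune genes, 13 had no UMI, and the exception, Cd68, was at 20.6, 22.4 and 20.4 CPM against 17.1, 34.6 and 26.7. Of 14 acinar genes found, 10 had no UMI, and the list summed to 6.27 to 10.3 CPM in members. Endothelial genes summed to 12.3, 21.3 and 7.84 CPM in members against 14.2, 14.8 and 13.2 in the rest, fibroblast genes to 8.22, 19.1 and 26.6 against 36.5, 28.3 and 45.3, and genes of intercalated duct and Aqp5 cells, a list that holds Sostdc1, to 30.8, 28.0 and 31.3 against 205, 124 and 104. Myoepithelial genes summed to 0 to 2.06 CPM and the ionocyte genes to 0 to 1.57. Of 12 striated and granular duct genes 6 had no UMI, all of them kallikreins (Klk1 and 5 Klk1b genes), and the other 6 were scarce. The list summed to 8.22, 16.8 and 12.5 CPM in members against 3.39, 3.08 and 3.58 in the rest, with Fxyd2, a subunit of the sodium pump, giving 1, 9 and 4 UMIs.

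Transport and secretory genes were measured as groups. In the ion and water transport list, 8 of 12 genes were higher in members in all 3 libraries and 1 lower (38.8% and 17.7% of all genes), and 8 higher and 3 lower after median-of-ratios scaling (24.4% and 30.4%). Aqp3, the glycerol and water channel, was at 397, 390 and 436 CPM against 241, 159 and 160, and Scnn1a, the alpha subunit of the epithelial sodium channel of ducts, at 30.8, 25.8 and 17.2 against 8.72, 7.84 and 7.02. Aqp3 and Scnn1a were higher in every library, and Kcnn4, a calcium-activated potassium channel, was lower, at 14.4, 12.3 and 18.8 against 29.7, 30.9 and 32.9. Cftr had 1 UMI in members. In the secretory vesicle list 7 of 9 were higher and 1 lower under both scalings, against the same shares. Sytl1, an effector of Rab27 like Mlph, was at 65.8, 59.4 and 62.7 CPM against 25.7, 23.7 and 27.5, and Rab27b at 41.1, 50.5 and 54.9 against 24.2, 25.6 and 23.7.

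Of 6 retinoid genes, 5 were higher in members in all 3 libraries, against 38.8% of all genes, among them the retinal reductase Dhrs3 (1.12, 0.72 and 0.86), and 3 after median-of-ratios scaling, against 24.4%. In the epithelial transcription factor list 8 of 17 were higher and 2 lower, where 38.8% of all genes were higher, and 6 and 4 after median-of-ratios scaling. Tfcp2l1, a factor of ductal epithelia, had the largest difference in it at 341, 223 and 235 CPM against 117, 111 and 116. Of the stem/progenitor genes of the study, 3 of 4 in its first list were higher in all 3 libraries (Cd164, Cd24a and Foxc1, with 0.46, 0.41 and 0.43 for Foxc1) and 2 of 5 in its second (Alcam at 1.01, 0.87 and 1.14, and Nt5e), while 1 of each was lower. The second list's counts are near the 38.8% and 17.7% of all genes. Median-of-ratios scaling left the first list's counts and gave 1 higher and 2 lower in the second. Sox9 was lower in members (92.5, 127 and 155 CPM against 114, 210 and 201), as was Itgb1 (206, 201 and 216 against 387, 487 and 393). Notch1 was at 134, 215 and 282 against 180, 272 and 309.

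Of 9 mucosal defense genes 6 were higher in all 3 libraries and 1 lower (38.8% and 17.7% of all genes), with 5 and 1 after median-of-ratios scaling (24.4% and 30.4%). Besides Il33, the secreted inhibitors Slpi (0.75, 0.31 and 0.20) and Wfdc2 (0.66, 0.60 and 0.28) were higher. Ltf had 2 UMIs in members, and Pigr and Ccl20 had 0. Of 5 S phase genes, 4 were lower, where 17.7% of all genes were, with the helicase gene Mcm4 at 6.17, 13.5 and 9.40 CPM against 29.6, 24.6 and 19.0.

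The members were not uniform, and splits by single rule genes are described, not tested. The 76 with Gabrp and the other 224 differed in the same direction in every library for the genes given here, which were chosen by the size of their difference or named above. Krt13 was at 3088 against 1176 CPM, Sprr1a at 3692 against 911, Il33 at 1459 against 487 and the platelet-type chemokine Ppbp at 635 against 114. The 53 with Cxcl17 had a different makeup, with Wfdc2 at 3450 against 1292 CPM, Krt7 at 1892 against 1162 and the aldehyde dehydrogenase Aldh3a1 at 240.5 against 54.0, and with the small proline-rich gene Sprr2d at 65.8 against 1034. The 125 with Lcn2 had less Mal (76.8 against 235), Krt19 (51.9 against 152) and Il33 (585 against 954), and more Cxcl3 (173 against 51.3) and Ly6c1 (202 against 77.9). Krt13 was at 3088 CPM in the Gabrp barcodes, 1527 in the Cxcl17 and 1289 in the Lcn2 barcodes, groups that share barcodes.

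Irradiated members were compared with control members for 2514 genes. Photon and proton members were both at least 2-fold above control for 20 genes (0.796%) and below for 3 (0.119%). Photon members alone were so for 43 genes above (1.71%) and 11 below (0.438%), and proton members for 33 (1.31%) and 19 (0.756%). Both irradiated libraries share 1 control library of 62 members, so the contrasts are not independent, and the libraries differed in the rule genes that made up their members and in median depth. The part of makeup and depth in these values was not tested.

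Some chemokines that attract neutrophils were among the higher genes, picked here after their values were seen. Ppbp stood at 57.6 CPM in control, 338 in photon and 350 in proton members. In the rest it was 55.1, 71.8 and 54.5. Cxcl2 was also above control, with 39.1, 167 and 191 CPM in members and 60.4, 60.9 and 69.5 in the rest. Cxcl1 was at 92.5, 230 and 274 CPM in members, and 151, 177 and 180 in the rest. Cxcl5 was at 8.22, 58.3 and 64.3 in members, and 5.49, 11.6 and 10.5 in the rest, but had only 4 UMIs in control members and, with 97 in all members, was below the limit for comparison. Cxcl3 was 1.76 above control on the log2 scale in photon and 0.66 in proton members, the latter with an interval of -0.08 to 1.45, and 1.34 and 0.71 in the rest. Ppbp was found in 7, 46 and 27 members, and without the highest member of each library its log2 differences from control were 2.95 and 2.78.

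Cxcl5 (chr5:90759298-90761625), Ppbp (chr5:90768518-90770063), Cxcl3 (chr5:90786101-90788093), Cxcl1 (chr5:90891245-90893121) and Cxcl2 (chr5:90903899-90905938) are neighbors on chromosome 5. The 120 bases before the start of 3 of them, all on the plus strand, are given to show a shared element, with capitals marking the NF-kB-type motif on either strand. They are chr5:90785981-90786100 for Cxcl3, chr5:90903779-90903898 for Cxcl2 and chr5:90891125-90891244 for Cxcl1.
Cxcl3: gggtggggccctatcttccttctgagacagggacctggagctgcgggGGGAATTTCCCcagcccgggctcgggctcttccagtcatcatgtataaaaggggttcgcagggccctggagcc
Cxcl2: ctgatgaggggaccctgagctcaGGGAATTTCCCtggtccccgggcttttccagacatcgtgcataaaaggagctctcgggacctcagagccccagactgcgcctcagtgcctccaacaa
Cxcl1: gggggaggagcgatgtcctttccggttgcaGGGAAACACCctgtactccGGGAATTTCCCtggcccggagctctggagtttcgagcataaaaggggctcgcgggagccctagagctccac

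Each holds GGGAATTTCC, beginning 73, 97 and 71 bases before the start in Cxcl3, Cxcl2 and Cxcl1, and overlapping a match on the other strand 1 base on. The exact 10 letters were in 0.0852% of all promoters. Cxcl1 held another match, GGGAAACACC, 90 bases before the start. The Ppbp window held no NF-kB-type motif, and promoters of Mal, Krt13, Anxa1 and Lgi2 held at least 1.

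Over 16 genes of the NF-kB response list, 9 were higher in both irradiated libraries' members and 2 lower, where 34.2% of all genes were higher in both and 37.1% lower. The lists use genes from 10 UMIs in members, whereas those shares are over the 2514 genes that passed the stricter limit. The list median was 0.36 after photons and 0.42 after protons, against 0.02 and 0.19 in the rest. Nfkbia, the feedback inhibitor of NF-kB, was at 385, 490 and 560 CPM in members and 462, 510 and 541 in the rest.

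Other genes above control included the retinal dehydrogenase Aldh1a3, with 26.7, 117 and 110 CPM in members, and Sprr2d, with 132, 1230 and 779. Both came partly from few barcodes. Sprr2d had 312 of 1097 photon UMIs in a single member, but without each library's highest member its log2 differences were 3.51 and 2.98. Psca was at 53.5, 380 and 751 CPM, but 372 of 479 proton UMIs lay in 1 member. Without the highest member of each library its proton difference was 2.00 on the log2 scale in place of 3.79. The keratins Krt16 (94.6, 342 and 323 CPM) and Krt6b (140, 317 and 370) were at least 2-fold above control in both as well. In the rest the log2 differences from control after photons and protons were 2.92 and 1.54 for Psca and 1.60 and 0.15 for Aldh1a3. They were 0.64 and 0.28 for Sprr2d, 0.44 and -0.15 for Krt16 and -0.32 and -0.86 for Krt6b.

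**Figure D4:**
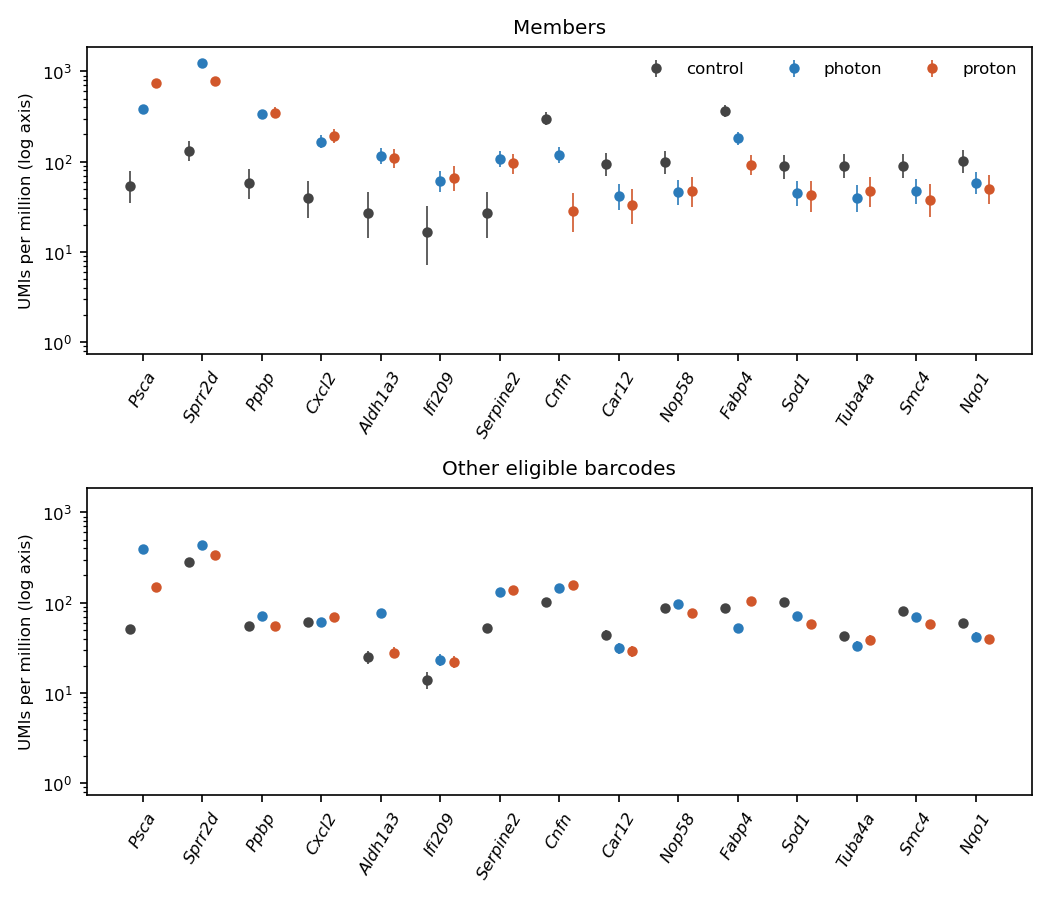
CPM (log axis) with 95% exact Poisson intervals for 7 of the genes highest and the 8 lowest after irradiation, in members (upper panel) and in the rest (lower panel) of the control, photon and proton libraries. Ppbp is at 57.6, 338 and 350 in members and at 55.1, 71.8 and 54.5 in the rest.

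Fewer genes were at least 2-fold below control in both, and some of the lowest genes, Cnfn and Fabp4 among them, rested on few barcodes. Cnfn, cornifelin, was at 300.2, 119 and 28.2 CPM in members. In the control 83 of 146 Cnfn UMIs lay in 1 member, and without the highest member of each library the differences were -0.64 and -2.98. Fabp4, a fatty acid-binding protein, was at 364, 182 and 92.5 CPM, with 90 of 177 control UMIs in 1 member. Car12, a carbonic anhydrase of secretory epithelia, was at 94.6, 41.5 and 32.9 CPM, and Nop58, of ribosome assembly, at 98.7, 46.0 and 47.0. Of the 3 genes 2-fold below control in both libraries, Car12 and Nop58 stayed so without their highest members and Cnfn did not.

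Interferon response genes were higher in both irradiated libraries' members for 10 of 13 and lower for 2 (34.2% and 37.1% of all genes, as for the next lists), with a median of 0.95 after photons and 0.88 after protons. The rest gave 0.84 and 0.98. With genes at 0 set to a floor of 3 UMIs the proton median was 0.02. These genes were scarce, with 525 UMIs in all members. Of 8 cycling genes 0 were higher in both and 6 lower, with medians of -0.55 and -2.59, or -2.12 for protons with the same floor. The rest gave -1.08 and -0.94. Mki67 had 31 UMIs in 5 control members, 9 in 6 photon members and 0 among the proton members, where the floor put it at least 13.6-fold below control members. In the rest it was at 32.3, 9.24 and 10.7 CPM. Mitochondrially encoded genes were higher in both for 10 of 11 (0.36 and 0.36), as in the rest (0.42 and 0.38).

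The day 11 library gave independent cells for the same ranking. Of 14266 barcodes 9282 were eligible, and the top 865, the same fraction as at day 7, were taken. The rule genes were far more abundant there. Lcn2 was at 2694 CPM over eligible barcodes (2676 to 2711) and was detected in 83.1% of the barcodes below the top 865, and Cxcl17 was at 256 CPM against 6.97 to 8.48 in the 3 day 7 libraries. The rule share at rank 865 was 0.725%, above all but the top day 7 barcode, so the day 11 ranking is by level of Lcn2 rather than by its presence. Animals, run and age differ from day 7 and cannot be told apart.

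In that ranking 47.6% of 6716 genes were higher in the top barcodes and 52.4% lower, 1.7% and 1.4% at least 2-fold. Of the 47 genes higher at day 7, 44 were measured, 38 were higher at day 11 and 18 at least 2-fold higher (40.9%), where 48.9% and 1.27% of the 4719 genes measured at both ages were. The other 6 were lower, among them Krt15 (-0.52), and 0 of them at least 2-fold. All 10 measured genes of the lower set were lower, 8 of them at least 2-fold. Mal (1.88), Spink5 (1.55), Pdzk1ip1 (2.56) and Prss27 (2.71) were high at both ages, and Sostdc1 was low (-2.46). Il33 (0.40) and Cxcl3 (0.23), first and next by least difference at day 7, and Krt13 (0.56) were under 2-fold at day 11. Dapl1 was lower in the top barcodes (24.2 against 31.6 CPM) although it was part of the rule.

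**Figure D5:**
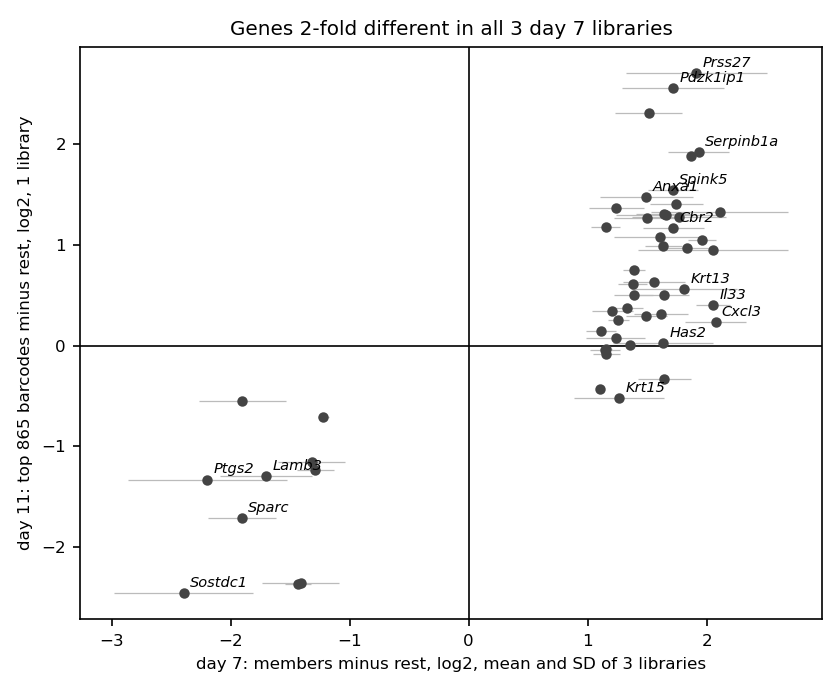
Mean difference between members and rest over the 3 day 7 libraries (horizontal, log2, bars are SD) against the difference between the top 865 barcodes and the others at day 11 (vertical, log2, 1 library), for genes at least 2-fold different in all 3 day 7 libraries. Genes of the lower set all lie below 0 at day 11, and 38 of 44 of the higher set lie above it.

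Some antimicrobial and chemokine genes scarce at day 7, picked here after their values were seen, were among the highest at day 11. Others of these kinds were not higher in the top barcodes, such as Defb1 (-0.41 on the log2 scale) and S100a9 (-0.02). Lactoferrin, Ltf, had 1260 UMIs in the top barcodes (350 CPM against 20.2), haptoglobin, Hp, 1123 (312 against 36.8), and the chemokine Ccl20 was at 94.9 against 14.5. Ltf, Hp and Ccl20 were detected in only 19.9%, 25.9% and 4.39% of the top barcodes. At day 7 members held 2, 6 and 0 UMIs of Ltf, Hp and Ccl20, below the limit for comparison, against 3, 6 and 0 in the rest. Members held 2016050 UMIs in all and the rest 20603501, so equal counts are not equal levels. On the log2 scale Hp differed by 3.09, 0.90 and -0.50 between members and rest of the control, photon and proton libraries.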

How the data were processed

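The deposited files were UMI counts per gene and barcode from 10x 3′ libraries, as the authors' pipeline wrote them. The submitters' processing notes name Cell Ranger 5 and the build mm10, the matrix headers name software 3.0.1 for day 7 and tissue and 7.0.0 for day 11, and the study's methods name GRCm39. RefSeq GRCm38.p6 was used for positions (72 of 74 named genes matched by symbol) and promoters. The members and the gene lists were chosen with earlier results of these data known. UMIs were summed per library over members and over the rest, scaled to CPM by the UMI total of that sum, and compared as log2(CPM + 1). A gene was compared with the rest at 100 UMIs and 20 CPM or more, and is called 2-fold only if so in every library. The genes named are the rule genes, the 20 highest and 10 lowest outside the rule by their least difference, the 8 highest and 8 lowest after irradiation, listed genes and genes of the study; others were chosen after their values were seen, and a few genes that the rule names are not reported here. Intervals are 95% exact Poisson, Clopper-Pearson, or conditional binomial for ratios, and ignore variation between animals and cultures. Where a floor is named, a gene at 0 was given 3 counts in that library, and all other values were computed with 0 kept. The day 7 samples held 16908611, 30957157 and 29509628 UMIs (control, photon, proton). Alternatives changed the member number, eligibility, ranking, doublets, pseudocount, scaling, filter, weighting and depth. Python 3.11.15, NumPy 2.4.6, SciPy 1.17.1, pandas 2.3.3 and scanpy 1.11.5 (Scrublet) were used, and the scripts were tested on simulated data.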

Additional observations from a re-analysis of the deposited data

Results flagged for a closer look

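Given here are 3 named genes whose difference between members and rest had opposite signs in 2 day 7 libraries. They are not the only such genes, and these contrasts between libraries were not tested. Of 5039 genes compared, 1953 were higher in members in all 3 libraries and 890 lower, so mixed signs were common. Krt8, Krt18, Cxcl1 and Cxcl2 above also changed sign between libraries. Sprr2d was at 1230 CPM in photon members against 435 in the rest and at 132 against 280 in the control, a gap of 2.58 on the log2 scale. Cnfn was 1.54 higher in control members and 2.44 lower in proton members, a gap of 3.98, and 83 of its 146 control UMIs lay in 1 member. Mki67 was 0.96 higher in control members, and with 0 UMIs in proton members the floor of 3 counts put it at least 1.04 lower there, a gap of at least 2.00.

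Barcodes that failed the eligibility limits also held the rule genes, with 1187 UMIs in the control, 3598 in the photon and 2620 in the proton library. Their level, 116, 157 and 121 CPM, was close to the 123, 157 and 126 of the eligible barcodes.

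Fresh gland tissue, which enters no comparison above, had Cxcl17 at 104 CPM (95% interval 82.0 to 130) over 128 eligible barcodes, above the 6.97 to 8.48 of day 7.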

How the results depend on the processing

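No count of genes fell to 0 and no mean difference changed sign for a gene in the contrast it was named for, under the alternatives run. The proton to control share ratio of 1.26, whose interval includes 1, was below 1 with 150 members (0.960), 4000 UMIs (0.984) and at least 2 rule genes (0.973). Median-of-ratios scaling turned the median of all genes (0.12 to -0.03) and the medians of the second stem/progenitor list (0.02 to -0.13), the interferon list (0.02 to -0.13), the p53 list (0.07 to -0.08) and the dissociation list (0.03 to -0.12). Of the values for named genes, 281 of members against rest and 378 of irradiation kept within their spread, and 139 and 70 moved. The 47 genes higher in members became 19 with a pseudocount of 10 CPM and 93 with no filter on low values. The 15 lower genes became 32 with 150 members, 31 with ranking by genes detected and also with median-of-ratios scaling, 42 with at least 2 rule genes, 7 with no Malat1 minimum and also with equal weight per barcode, 9 with a pseudocount of 10 and 75 with no filter. The 20 genes higher after irradiation became 38 with 600 members, 12 with no Malat1 minimum, 1097 with no filter and 8 after thinning, and the 3 lower became 6 with 4000 UMIs or ranking by genes detected, 729 with no filter and 9 with equal weight. The genes called also differ. Of the 47 higher and 15 lower genes, 19 and 5 were called again after thinning, 30 and 5 with 600 members, 28 and 6 with no Malat1 minimum (which shares 150 members) and 33 and 15 with median-of-ratios scaling. Of the 20 higher after irradiation, 8 were called again with 150 members and 8 with 600. With no Malat1 minimum 9 were, with 4000 UMIs 10, with ranking by genes detected 13 and after thinning 5. Of the 3 lower after irradiation, 0 were called again with 4000 UMIs, 600 members or thinning and 1 with ranking by genes detected. The photon to control share ratio of 1.60 was 1.17 with 600 members. Leaving out 1 library, with 2-fold required in the other 2, gave 71 to 88 higher and 30 to 35 lower genes, a looser rule by construction; the cause of the other shifts was not tested. The alternatives with at least 2 rule genes, with at least 2 rule UMIs after thinning, without a gene's highest member and with each library left out were chosen after seeing the data. No paired analysis was possible because each condition is 1 library. Members with 1 or 2 rule UMIs set the depth limit.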

Other observations

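In fresh tissue the rule genes came apart. Over the 128 eligible barcodes Cxcl17 had 78 UMIs and Mlph 49, whereas Lgi2 and Gabrp had 0. All 23 Lcn2 UMIs lay in 1 barcode that also held at least 10 UMIs of the neutrophil genes S100a8, S100a9 or Retnlg. In the 12 tissue barcodes highest for the rule genes, Krt8 was at 1145 and Krt18 at 3681 CPM against 56.0 and 206 in the other tissue barcodes, and Tfcp2l1 at 1173 against 67.8. Krt13, Krt15, Spink5 and Il33 had 0 UMIs in them and only 1, 2, 0 and 4 in the other tissue barcodes. The epithelial gene Epcam was also higher in the 12, at 2086 against 198 CPM, and only 16 of the 128 barcodes were counted as epithelial. The part of epithelial against other cells in these contrasts was not tested. The barcode with all 23 Lcn2 UMIs was 1 of the 12.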
